A study of Gasterosteus aculeatus with 16 samples.

Results

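DAD1 (ENSGACG00000014453) and PTPLB (ENSGACG00000001232) are 2 genes of the endoplasmic reticulum, followed here in whole embryos of threespine stickleback at 3 days post-fertilization. They are 2 of the 17440 genes with a logCPM value and of the 22456 gene models with an FPKM value. Both were selected on how embryos of predator-exposed mothers differed from control embryos, so that difference is given as a description with no test.

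Embryos came from wild-caught Navarro River females that were assigned by tank to predator exposure or control. Exposed females were chased daily with a rubber model of a sculpin before and during gravidity, and control females were not chased. Eggs were fertilized in a dish with the testes of individual males, and the sexes could not be told apart at this stage. Each library held 10 embryos pooled from 1 clutch, with 8 clutches of exposed mothers, called maternally-stressed here, and 8 of control mothers. Which tank a mother came from is not given, and clutches were taken as independent. The meaning of the 2 numbers in a clutch name, such as 15_14, is not given either. Control clutches 15_14, 15_2 and 15_5 shared their first number, as did control clutches 5_14 and 5_21. No maternally-stressed clutches shared one. The paper states that each pool came from a different mother. Whether control clutches with a shared first number are independent in other ways, such as tank, was not tested. Of the second numbers, 14 occurred only in 4 control clutches and 10 only in 3 maternally-stressed clutches, so whatever it marks cannot be told apart from exposure there.

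DAD1, defender against cell death 1, is a small membrane subunit of the oligosaccharyltransferase. This complex transfers a preassembled sugar chain from a lipid carrier to asparagines of proteins as they enter the endoplasmic reticulum, and hamster cells that lose DAD1 die by apoptosis. PTPLB, also called HACD2, is a 3-hydroxyacyl-CoA dehydratase, which in mammals and yeast carries out the dehydration step of the cycle that lengthens very-long-chain fatty acids in the same membrane. The products of that cycle go into sphingolipids and other membrane lipids. In whole embryos a difference in the number of cells of a type cannot be told apart from a difference in RNA per cell.

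In the genome assembly BROADS1 the DAD1 model lay on linkage group III at chrIII:4404854-4405859, a span of 1006 nt. The PTPLB model lay on the unplaced scaffold_181, from 43227 to 44047, a span of 821 nt. The deposited values give the positions of whole models, without exons or untranslated regions.

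Libraries held 8950867 to 12765406 reads in genes, and depth did not separate the groups (two-sided exact permutation p = 0.359). DAD1 received 751 to 1394 reads in a clutch and PTPLB 428 to 875, so counting alone gave coefficients of variation of 2.68 to 3.65% for DAD1 and 3.38 to 4.83% for PTPLB. CPM, reads scaled to a common library total, was recovered from the deposited logCPM values and does not correct for gene length. FPKM does, per kilobase of exon.

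DAD1 was detected in every clutch at between 82.3 and 114.8 CPM. In maternally-stressed embryos it ranged from 99.5 CPM in clutch 8_10 through a median of 105.6 CPM to 114.8 CPM in clutch 17_10. The other 6 maternally-stressed clutches were 3_10 at 101.2 CPM, 6_21 at 103.6 CPM, 24_28 at 103.9 CPM, 10_5 at 107.2 CPM, 26_28 at 109.4 CPM and 14_28 at 110.2 CPM. In control embryos it ranged from 82.3 CPM in clutch 20_28 through a median of 83.6 CPM to 95.6 CPM in clutch 15_14. No control clutch reached any maternally-stressed clutch, and 6 of the 8 controls lay at 86.5 CPM or below, with clutches 5_14 (90.6 CPM) and 15_14 above them. The mean was 106 ± 5.12 CPM (SD, n = 8) in maternally-stressed and 85.9 ± 4.81 CPM (SD, n = 8) in control embryos, a ratio of 1.24. On the logCPM scale, which adds a moderating prior equal to 2.77 CPM, the log2 fold change was 0.30 with a standard error of 0.05. A gap of this kind, with every maternally-stressed clutch above every control clutch, occurred on CPM in 0.0229% of the 17440 genes (4 genes). DAD1 was chosen on this contrast, so nothing is read from the comparison with that share.

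PTPLB was lower than DAD1 in reads and, on CPM, more variable. In maternally-stressed embryos it ranged from 54.1 CPM in clutch 6_21 through a median of 64.1 CPM to 71.0 CPM in clutch 17_10. The other 6 maternally-stressed clutches were 3_10 at 55.6 CPM, 26_28 at 59.5 CPM, 24_28 at 63.6 CPM, 8_10 at 64.6 CPM, 10_5 at 66.3 CPM and 14_28 at 70.1 CPM. Control embryos ranged from 41.0 CPM in clutch 15_14 through a median of 47.8 CPM to 56.2 CPM in clutch 15_5. The groups overlapped at this single control, since clutch 15_5 lay above maternally-stressed clutches 6_21 and 3_10, while the other 6 maternally-stressed clutches lay above every control. All 8 maternally-stressed clutches lay above the control median. The mean was 63.1 ± 6.27 CPM (SD, n = 8) against 48.5 ± 4.24 CPM (SD, n = 8) in control embryos, a ratio of 1.30, and the log2 fold change on logCPM was 0.36 with a standard error of 0.07.

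**Figure D1:**
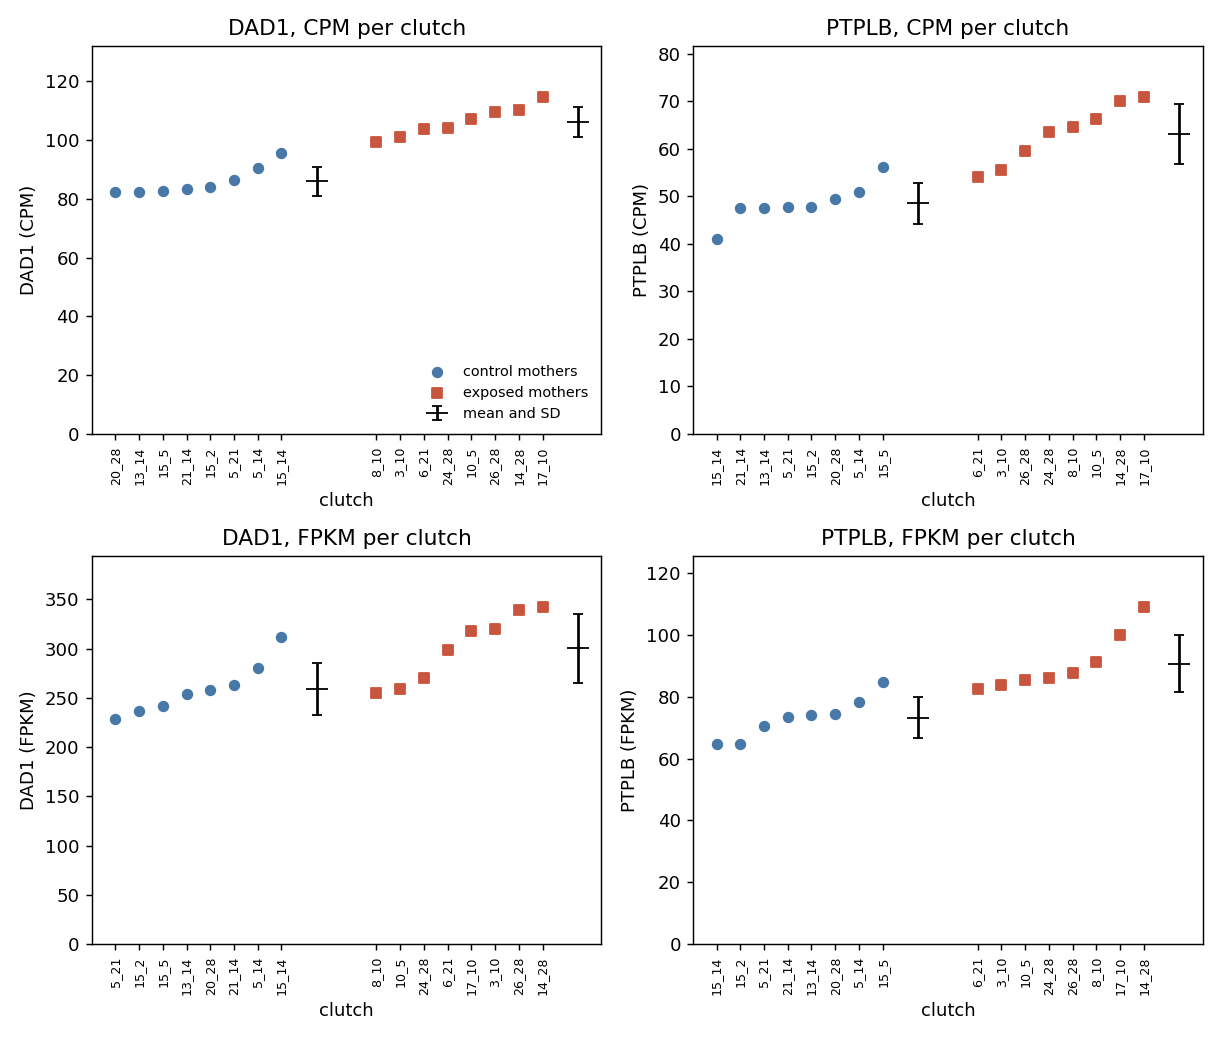
Level of DAD1 (left) and PTPLB (right) in each clutch, as CPM (top) and FPKM (bottom), with clutches ordered by value within each group and the mean with its SD beside each group. DAD1 in CPM is the panel in which the groups do not overlap, with controls up to 95.6 CPM and maternally-stressed clutches from 99.5 CPM.

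FPKM gave the same direction for both genes, with more overlap for DAD1. DAD1 ranged from 255.1 FPKM in clutch 8_10 through a median of 308.3 FPKM to 342.5 FPKM in clutch 14_28 in maternally-stressed embryos. In control embryos it ranged from 228.6 FPKM in clutch 5_21 through a median of 255.7 FPKM to 311.9 FPKM in clutch 15_14. Only 4 of the 8 maternally-stressed clutches exceeded every control, namely 14_28, 26_28, 3_10 and 17_10. The means were 300.4 ± 35.1 and 259 ± 26.7 FPKM (SD, n = 8 each), and the log2 fold change on log2(FPKM + 1), which includes the pseudocount of 1, was 0.21 with a standard error of 0.08.

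PTPLB ranged from 82.4 through a median of 86.8 to 109 FPKM in maternally-stressed embryos. In control embryos it ranged from 64.8 through a median of 73.8 to 84.8 FPKM. Clutch 15_5 was again the control that reached into the maternally-stressed group, 6 of whose 8 clutches lay above every control. The means were 90.7 ± 9.25 and 73.2 ± 6.66 FPKM (SD, n = 8 each), with a log2 fold change of 0.30 and a standard error of 0.07 on log2(FPKM + 1). Complete separation in this direction was seen on FPKM in 0.00951% of 21028 gene models (2 models), and neither DAD1 nor PTPLB was among them.

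Per kilobase, DAD1 was the more abundant transcript in every clutch. The ratio of DAD1 FPKM to PTPLB FPKM was 3.33 ± 0.396 in maternally-stressed and 3.58 ± 0.563 in control embryos (SD, n = 8 each). By mean FPKM, DAD1 ranked 425 and PTPLB 1149 among 22456 gene models. Both models are short, and the FPKM of each lay above the upper bound listed beside it in all 16 clutches, so these levels between genes are less certain than the comparison of 1 gene between clutches.

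On CPM, DAD1 varied little between clutches of a group. The coefficient of variation of its CPM was 4.82% in maternally-stressed and 5.60% in control embryos, against counting errors of 2.68 to 3.65%. For PTPLB it was 9.93 and 8.73%. The order was the other way on FPKM, with 11.7 and 10.3% for DAD1 and 10.2 and 9.10% for PTPLB. On logCPM the SD within groups was 0.07 for DAD1 and 0.13 for PTPLB, beside a median of 0.15 for 2575 genes with a mean of 50 to 200 CPM. Of those genes 97.3% had a larger SD than DAD1 and 61.8% a larger SD than PTPLB. Selection on a difference between groups favours genes with a small SD within them, so these shares are a description. The SD of DAD1 was larger under another scaling: with median-of-ratios size factors, which set a typical gene equal between clutches, its SD was 0.16, and 50.6% of the genes were more variable. The same SD of PTPLB was 0.18, and 42.2% were more variable.

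The scaling also moved single clutches. Relative to the library total, the median-of-ratios factor ran from 0.877 in clutch 14_28 to 1.13 in clutch 3_10 among maternally-stressed embryos. Among controls it ran from 0.945 in clutch 15_14 to 1.13 in clutch 15_5. With these factors DAD1 covered 89.6 CPM (clutch 3_10) to 125 CPM in maternally-stressed and 73.1 to 100.8 CPM (clutch 15_14) in control embryos. The groups then overlapped, with 6 of 8 maternally-stressed clutches above every control. PTPLB covered 49.2 CPM (clutch 3_10) to 79.6 CPM and 43.2 to 50.4 CPM (clutch 20_28), with 7 of 8 above every control. The log2 fold changes were 0.38 for DAD1 and 0.44 for PTPLB under this scaling, for which the median over all genes is not given here. With library totals they were 0.30 and 0.36 on logCPM, beside a median of -0.05 over all genes.

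The difference kept its direction within the clutches that share a second number in their names. Both genes were chosen on this contrast in these same clutches, which favoured that direction in advance, so nothing is read from it. Among clutches with the number 5 (1 maternally-stressed, 1 control), 21 (1 and 1) and 28 (3 and 1), the ratio of maternally-stressed to control CPM was 1.29, 1.20 and 1.31 for DAD1. For PTPLB the ratios were 1.18, 1.13 and 1.30. In FPKM they were 1.07, 1.31 and 1.23 for DAD1, and 1.01, 1.17 and 1.27 for PTPLB. With 1 control clutch for each number these ratios have no error.

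Some properties of the libraries were also higher in maternally-stressed embryos. Mitochondrial transcripts took 1.14 ± 0.380% of reads in maternally-stressed and 0.692 ± 0.0918% in control embryos (SD, n = 8 each, two-sided exact permutation p = 0.00155). The study had already reported mitochondrial genes as higher in these same clutches, so this p-value is not independent evidence. The sums below are of genes named in the study's own list of differential genes, so they were favoured to differ with exposure and are given as levels with no test. The summed level of 27 structured non-coding RNAs ran from 35.3 to 726 CPM in maternally-stressed and from 32.9 to 263 CPM in control embryos. Erythroid genes (3 IDs found from 5 symbols) ran from 2937 to 4631 CPM against 1610 to 3660 CPM. Liver plasma proteins ran from 989 to 1761 CPM against 677 to 1271 CPM. Their list of 20 symbols matched 18 IDs, several of which were entries of C3, so not every symbol was found. Lens genes (12 IDs) ran from 512 to 1824 against 557 to 1166 CPM, and muscle genes (3 IDs) from 32.8 to 88.8 against 27.5 to 64.9 CPM. The sums hide IDs that went the other way. The mean was higher in maternally-stressed embryos for 14 of 18 liver, 11 of 12 lens, 3 of 3 erythroid and 3 of 3 muscle IDs. The groups overlapped in all 5 sums, and no gene of the 4 tissue lists was at 0 in any clutch. With the mean of the structured RNAs as a covariate the log2 fold change was 0.30 for DAD1 and 0.31 for PTPLB. Without the 6 clutches highest in structured RNA, which were 10_5, 17_10, 24_28, 26_28, 8_10 and 15_2, it was 0.28 for both. Of these 6 only 15_2 was a control clutch, so 14_28, 3_10 and 6_21 were the only maternally-stressed clutches left. The part of blood, liver or mitochondrial RNA in the difference was not tested.

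Whether DAD1 and PTPLB vary together from clutch to clutch was asked within each group, apart from the difference between groups. Both genes were chosen with earlier results of these clutches known, so the p-values of these correlations are descriptions and not independent evidence. In maternally-stressed embryos both were highest in clutch 17_10, and clutch 3_10 was among the lowest 2 for both. Pearson's r of logCPM was 0.592 (n = 8, two-sided exact permutation p = 0.125) and Spearman's rho 0.643 (exact permutation p = 0.0962). Without clutches 8_10 and 17_10, the farthest from the median of DAD1, r was 0.691 (exact permutation p = 0.138). In control embryos clutch 15_14 was the highest in DAD1 and the lowest in PTPLB. There r was -0.590 (n = 8, exact permutation p = 0.157) and rho -0.286 (exact permutation p = 0.501). Without clutches 5_14 and 15_14 r was -0.291 (exact permutation p = 0.519). Without clutch 15_14 alone r was 0.0485, so the sign in control embryos depended on which clutches were left out.

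Neither correlation passed the test over all 8 clutches, and without clutch 8_10 alone r in maternally-stressed embryos was 0.784 (exact permutation p = 0.0417). Over the 18 relations of the 2 genes with each other and with library measures, the Benjamini-Hochberg adjusted p of Pearson's r was 0.403 for the pair in each group, and no relation had a smaller one. The adjusted p of Spearman's rho was 0.690 and 0.819. The largest relation with a library measure was that of DAD1 in maternally-stressed embryos with the median-of-ratios factor (r = -0.710, n = 8, exact permutation p = 0.0512), and r was -0.284 without the 2 clutches farthest from the median of that factor. The 2 within-group correlations of DAD1 with PTPLB differed by 1.18, with an exact permutation p of 0.110 over 12870 assignments of clutches.

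Scaling changed the correlation in maternally-stressed embryos. With median-of-ratios factors, r was 0.883 (n = 8, exact permutation p = 0.00459) there and -0.114 (n = 8, exact permutation p = 0.795) in control embryos, a difference of 0.997 (exact permutation p = 0.0179). Such a factor, like a library total, multiplies both genes of a clutch alike, so the points share it under either scaling. Permuting the pairings within a group does not keep this shared factor. The p-values of this paragraph are not adjusted for the number of relations or scalings. Why r differed between the scalings was not tested. On log2(FPKM + 1) the values were 0.420 (n = 8, exact permutation p = 0.307) and -0.202 (n = 8, exact permutation p = 0.636), and their difference of 0.622 had an exact permutation p of 0.372. The correlation of DAD1 with PTPLB is therefore stated only with its scale.

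**Figure D2:**
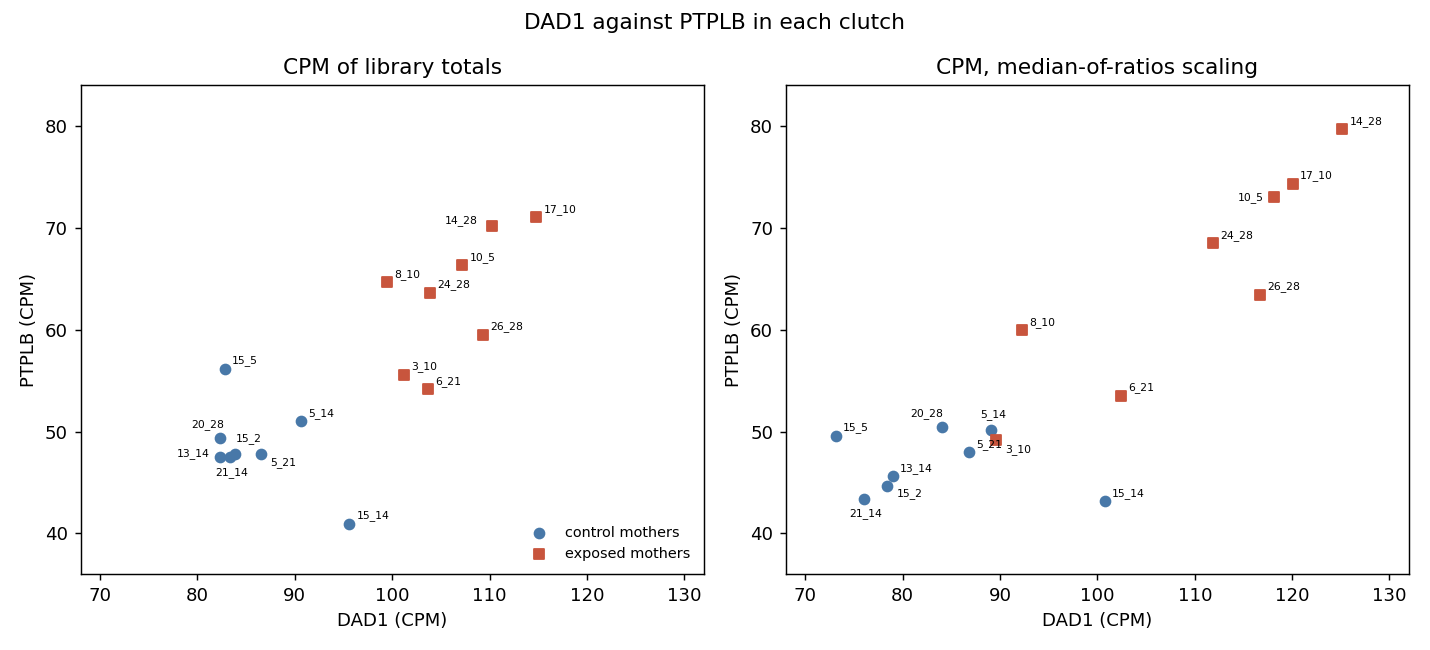
DAD1 (horizontal axis, CPM) against PTPLB (vertical axis, CPM) in each of 16 clutches, with library totals (left) and median-of-ratios scaling (right). Squares are maternally-stressed and circles control clutches, r in maternally-stressed clutches was 0.592 on the left and 0.883 on the right from the logCPM values, and control clutch 15_14 lies apart from the other controls in both panels.

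The ratio of DAD1 to PTPLB reads in a clutch does not depend on any scaling. It was 1.69 ± 0.141 in maternally-stressed (1.54 to 1.91) and 1.79 ± 0.244 in control embryos (1.47 to 2.33, SD, n = 8 each). The ranges overlapped, and the highest ratio, in control clutch 15_14, stood apart from the next control at 1.81.

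The other transcripts most like each gene were found from the deviations of logCPM from the group means over 16 clutches, among 9788 other genes with a mean of at least 10 CPM. These correlations share libraries and scaling and are descriptions. For DAD1 the median r was -0.308, and 70.4% of the genes had a negative one. PTPLB had an r of 0.00878 with DAD1 and ranked 2841 in the order of DAD1. Within groups r between DAD1 and PTPLB had opposite signs, 0.592 in maternally-stressed and -0.590 in control embryos. For PTPLB the median r was -0.0322, 55.1% were negative and DAD1 ranked 4258. With median-of-ratios scaling the medians were 0.170 and 0.131, and r between DAD1 and PTPLB was 0.613, rank 2373 for DAD1 and 1292 for PTPLB, so neither was near the top of the order of the other.

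**Figure D3:**
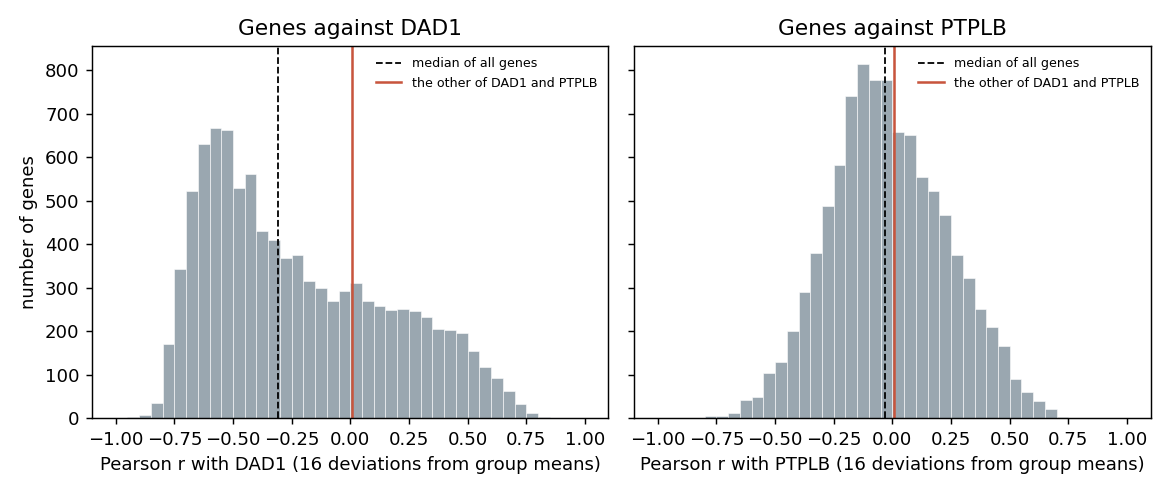
Number of genes (vertical axis) by Pearson's r with DAD1 (left) and PTPLB (right), in bins of r over 9788 genes, from 16 deviations of logCPM from group means. Dashed lines mark the medians of -0.308 and -0.0322, and the solid line marks r = 0.00878 between DAD1 and PTPLB, which lies to the right of both medians.

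The 5 genes most like DAD1 had r from 0.794 to 0.834. They were ENSGACG00000009997, ENSGACG00000008584, ENSGACG00000003133, ENSGACG00000006204 and ENSGACG00000002229, of which only the second had a name, VTN or SEBOX. VTN encodes vitronectin, a plasma protein made by the liver, but the label does not settle whether the gene is VTN or SEBOX. The 5 genes most like PTPLB, with r from 0.697 to 0.807, were ENSGACG00000000644, ENSGACG00000011068, ENSGACG00000013897, ENSGACG00000018727 and ENSGACG00000018612, and none had a name in the sources used here. The nearest named genes, singled out after their values were seen, were TXNDC15 at rank 7 (r = 0.690), a thioredoxin-domain protein, and the alpha globin hbae1 at rank 12 (r = 0.674). This hbae1 is ENSGACG00000013889, and ENSGACG00000013880 has the same name. It had 12.1 to 266 CPM in maternally-stressed and 7.14 to 139 CPM in control embryos. Its mean was 7295 FPKM, so its level is uncertain and its r may not describe alpha globin. None of the 10 genes most like DAD1 or PTPLB passed the test between groups on either scale. Few genes passed at all, with 0.103% risen and 0.413% fallen over all genes on logCPM. The shares on FPKM were 0.0428% and 0.266%, so the absence of a call among 10 genes says little.

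The rest of the endoplasmic reticulum machinery could be followed only through genes that the study had named, because the files hold Ensembl IDs without names. Among 12 oligosaccharyltransferase symbols and 13 symbols of fatty acid elongation, DAD1 and PTPLB themselves were the only ones with a name. Of the other lists, 2 of 23 symbols for entry into the endoplasmic reticulum, 4 of 24 for glycoprotein folding, 1 of 10 for the unfolded protein response, 1 of 16 for ceramide synthesis and 0 of 23 for assembly of the lipid-linked sugar were found. The study had picked these 8 genes from the same clutches, so neither their direction nor their number at an unadjusted p under 0.05 is independent evidence. On logCPM 5 were higher and 3 lower in maternally-stressed embryos, 1 rose and 0 fell at an adjusted p under 0.1 (limma), with a median log2 fold change of 0.18 beside -0.05 for all genes. Over all 17440 genes 0.103% rose and 0.413% fell. On FPKM 0 of the 8 passed at an adjusted p under 0.05 (limma), with 6 at an unadjusted p under 0.05, a median of 0.14 beside -0.08 for all gene models, and 0.0428% risen and 0.266% fallen over all 21028.

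SPCS3 (ENSGACG00000016427), a subunit of the signal peptidase that trims proteins as they enter the endoplasmic reticulum, was the gene that rose. It averaged 130 ± 9.55 CPM in maternally-stressed and 110 ± 5.73 CPM in control embryos (SD, n = 8 each), from 110 to 142 against 103 to 118 CPM. The log2 fold change was 0.24 with a standard error of 0.05 (limma, adjusted p = 0.0777), and 0.17 on FPKM (limma, adjusted p = 0.183). The ranges overlapped, and the call was kept in 5 of the 16 fits that left out 1 clutch each, with adjusted p from 0.0207 (without clutch 8_10) to 0.177 (without clutch 17_10). The call was also kept with quantile normalization (limma adjusted p = 0.0582), voom on recovered reads (limma adjusted p = 0.0864) and a filter at a mean CPM of 1 (limma adjusted p = 0.0730). It was lost with structured RNA as a covariate (log2 fold change 0.29, limma adjusted p = 0.279), without the 6 clutches high in structured RNA (0.29, limma adjusted p = 0.385), with the second clutch number as a block (0.24, limma adjusted p = 0.109) and with median-of-ratios scaling (0.32, limma adjusted p = 0.142). The fold change was as large in these fits as with all clutches and library totals, and the first 2 called 0 of all genes. The fit without the 6 clutches kept only 14_28, 3_10 and 6_21 of the maternally-stressed clutches.

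None of the 4 genes found for glycoprotein folding passed the test, and the means of 2 lay above and of 2 below those of control embryos. MLEC, malectin, which binds the sugar chain soon after its transfer, averaged 38.9 ± 7.86 against 55.1 ± 9.08 CPM (log2 fold change -0.48, SE 0.12, limma adjusted p = 0.109). TMX3, a disulfide isomerase of the membrane and here copy 1 of 2, averaged 22.0 ± 2.71 against 29.4 ± 5.63 CPM (limma, adjusted p = 0.128). TXNDC15 lay on the other side, at 45.6 ± 2.99 against 39.5 ± 1.76 CPM (limma, adjusted p = 0.128). TAPBP, tapasin, which loads peptides onto MHC class I, was low at 2.06 ± 0.984 against 1.03 ± 0.435 CPM (limma, adjusted p = 0.165).

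ATF4, a transcription factor translated under endoplasmic reticulum stress and here copy 2 of 2, averaged 158 ± 15.0 against 140 ± 12.4 CPM (limma, adjusted p = 0.208). KDSR, the reductase of an early step of ceramide synthesis, averaged 15.8 ± 2.52 against 21.3 ± 4.45 CPM (limma, adjusted p = 0.142). SSR1, a translocon-associated protein, is annotated as copy 12 of 12, so reads may be split between copies and its level is uncertain. It was at 0 to 9.65 CPM in maternally-stressed and 0 to 0.0842 CPM in control embryos (limma, adjusted p = 0.384), while its FPKM averaged 8.76 ± 4.32 and 6.42 ± 0.811. Of the 8 genes, 7 had an unadjusted p under 0.05 on logCPM (limma), with SSR1 the exception. The study had picked them on these clutches, which favoured such a count in advance, so nothing is read from it. DAD1 and PTPLB lay on the higher side with SPCS3, SSR1, TXNDC15, TAPBP and ATF4.

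**Figure D4:**
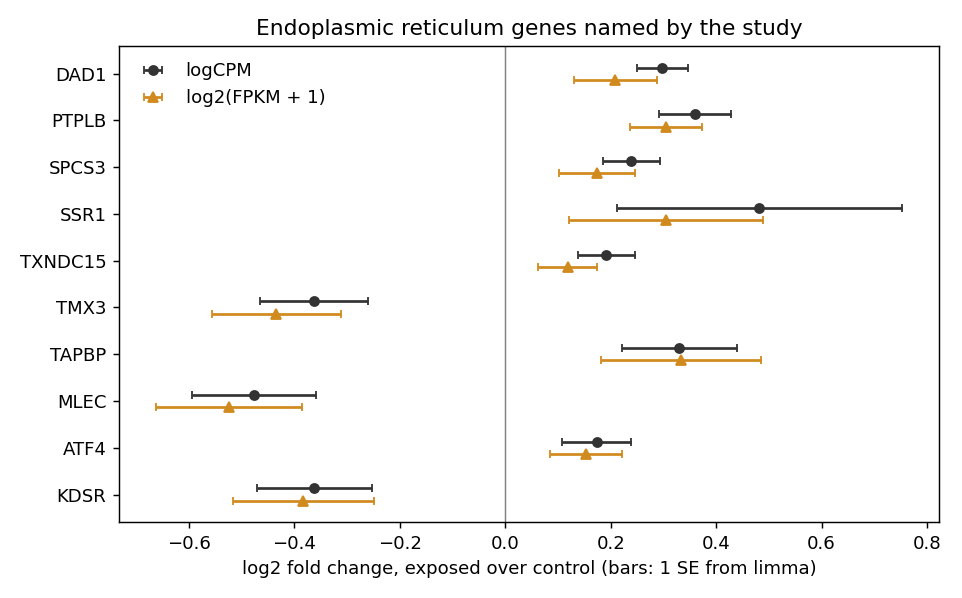
Log2 fold change of maternally-stressed over control embryos for DAD1, PTPLB and the 8 other endoplasmic reticulum genes that the study named, on logCPM (circles) and log2(FPKM + 1) (triangles), with 1 standard error from limma. DAD1 and PTPLB lie at 0.30 and 0.36 on logCPM, MLEC, TMX3 and KDSR lie below 0 on both scales, and all 10 genes were selected by the study on these clutches.

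The gene models beside DAD1 and PTPLB were not higher as a group. Within 25 kb of either gene there were 7 models without names, 4 near DAD1 and 3 near PTPLB. Of these 2 were higher and 5 lower in maternally-stressed embryos. Their median log2 fold change was -0.04 on logCPM, beside -0.05 for all genes, and -0.08 on FPKM, as for all gene models. On either scale 0 passed the test (limma). Over all features only 0.103% rose and 0.413% fell on logCPM, and 0.0428% and 0.266% on FPKM, so 0 of 7 says little. At an unadjusted p under 0.05 there was 1 on logCPM, ENSGACG00000014435 near DAD1 (log2 fold change -0.32, limma adjusted p = 0.294), and 0 on FPKM. The nearest model to DAD1, ENSGACG00000014448 at 1.29 kb, averaged 6.16 ± 0.850 against 6.16 ± 0.528 CPM. The nearest to PTPLB, ENSGACG00000001225 at 3.02 kb, averaged 13.8 ± 3.06 against 14.8 ± 1.70 CPM.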

How the data were processed

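RNA of 10 pooled embryos per clutch was selected with oligo(dT), made into stranded libraries and sequenced by the authors, with all libraries run together. Reads were trimmed and aligned to BROADS1 with TopHat2 2.0.8. The deposited logCPM values are log2 counts scaled to the library total with a moderating prior, which the authors made with edgeR for 17440 genes after removing genes with few or no reads. Whether strand was used in counting is not given in the sources used here. For the deposited FPKM values the authors ran Cufflinks 2.1.1 on 22456 gene models. Its bounds on FPKM, held beside them, did not serve as errors.

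Raised from the log2 scale, each logCPM value was a constant of 2.77 CPM plus whole multiples of 1 step per clutch, which gave back whole reads with a largest distance of 3.8e-09 from a whole number. Clutches were grouped by their labels. The comparison of the groups used limma 3.58.1 in R 4.3.3 (eBayes with trend, two-sided). Adjusted p-values (Benjamini-Hochberg, all features) had to be under 0.1 on logCPM and under 0.05 on log2(FPKM + 1), the latter over the 21028 models above 0 FPKM in 2 or more clutches. Single values and correlations were compared with exact permutation tests in Python 3.11.15 with scipy 1.17.1, and figures drawn with matplotlib 3.10.9. The fit was tested on simulated data.

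The members, lists and tests were chosen with earlier results of these data known. Named were DAD1 and PTPLB, list genes past the threshold and otherwise the 3 of each list with the highest mean CPM, the 5 genes most like each member and models within 25 kb. TAPBP lies outside that rule and was named to complete its list. Gene names are those of the study's list of differential genes, so other subunits are not analysed here. The RefSeq table used for reference names 10 of 12 oligosaccharyltransferase and 11 of 13 elongation symbols, but pairs none with an ID of the files.

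Alternatives were median-of-ratios scaling, quantile normalization, voom on recovered reads, filters at a mean CPM or FPKM of 1, a pseudocount of 0.1, other thresholds, the second clutch number as a replicate block and each clutch left out. The structured RNA covariate, leaving out the 6 clutches high in it, median-of-ratios scaling of FPKM and ratios within second numbers were added after seeing the data.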

Additional observations from a re-analysis of the deposited data

Results flagged for a closer look

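In control clutch 15_14 the ratio of DAD1 to PTPLB reads was 2.33, with the next control clutch at 1.81. The gap was 0.608 of the range of the 8 control clutches, above the 95% critical value of Dixon's test for an outlying sample. This was the single flag among 26 groups of 8 clutches tested, and chance flags about 1 in 20. The clutch combined the highest control DAD1 (95.6 CPM) with the lowest control PTPLB (41.0 CPM), and its library held 12231148 reads in genes.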

How the results depend on the processing

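Both genes stayed higher in maternally-stressed embryos under every alternative run. Each alternative used the clutches on which the genes were chosen, which favoured this direction, so it is not independent evidence. The log2 fold change of DAD1 on logCPM moved by more than the spread between clutches with median-of-ratios scaling (0.38) and within second number 28 (0.38), and that of PTPLB within second numbers 5 (0.23) and 21 (0.17), and on FPKM with median-of-ratios scaling (0.46, where DAD1 went from 0.21 to 0.36). Leaving out each clutch gave 0.28 to 0.32 for DAD1 and 0.33 to 0.39 for PTPLB on logCPM, and 0.18 to 0.25 and 0.27 to 0.34 on FPKM. With the second clutch number as a replicate block they were 0.30 and 0.35 on logCPM, and 0.21 and 0.30 on FPKM.

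The count of 1 other endoplasmic reticulum gene past the threshold (90 of all genes) fell to 0 at 0.05 (16 of all genes), with median-of-ratios scaling (15), with the replicate block (47), with the structured RNA covariate (0) and without the 6 clutches high in it (0). The count stayed at 1 with quantile normalization (96 of all genes), voom (81) and the filter at a mean CPM of 1 (104). Leaving out 1 clutch gave 0 to 5: 5 (KDSR, MLEC, SPCS3, TMX3 and TXNDC15) without control 15_14, maternally-stressed 3_10 or 8_10, where 746, 1233 and 1087 of all genes were called, 3 without 6_21 (196), 1 without 26_28 (90) and 0 without each of the other 11 (7 to 61). The count was highest in the fits that called the most genes. On FPKM the count of 0 became 2 at 0.1, and both genes were lower in maternally-stressed embryos. They were MLEC (log2 fold change -0.52, limma adjusted p = 0.0765) and TMX3 (-0.43, limma adjusted p = 0.0823). The share of all gene models called on FPKM at 0.1 is not given here. The cause of these changes in count was not tested. The correlation of DAD1 with PTPLB in maternally-stressed clutches was 0.883 with median-of-ratios scaling (n = 8, exact permutation p = 0.00459, not adjusted), and 0.407 to 0.784 when leaving out each clutch. In control clutches leaving out each gave -0.777 to 0.0485, with the sign turned without 15_14 (0.0485).

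With 8 clutches a group, 1 time point and pooled whole embryos, tissue and sex cannot be resolved, and intervals of reads cover counting error only.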

Other observations

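The deposited FPKM of both genes lay above the upper bound given beside it in 16 of 16 clutches, at a median of 2.19 times the bound for DAD1 and 1.30 times for PTPLB. Over all clutches this held for 38.3% of the values of 3361 gene models spanning under 1100 nt, the class of both genes, and for 11.7% of the values of 19095 longer models.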
